A study of Rattus norvegicus and Mus musculus with 12 samples.

Results

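The genes described here are 44 genes of glycolysis, of glucose and lactate transport and of the pathways that branch from glycolysis, in articular chondrocytes of rats and mice with and without interleukin-1β (IL-1β), an inflammatory cytokine. They were chosen by gene name for their role in the pathway, and no threshold on a measured value decided which gene was listed. The list was proposed when results of the same comparisons were known, so the changes below are a description of these genes and support nothing beyond it. Of the 44 names, 42 were found among 19687 genes of the rat, and Pfkfb4 and Pgd were not analysed in rat under these names. In the mouse table all 44 names were found among 28603 genes, in 45 rows, since Aldoa names 2 rows. The gene of glucose-6-phosphate isomerase is called Gpi in rat and Gpi1 in mouse and was counted once.

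The chondrocytes came from the articular cartilage of newborn SD (Sprague–Dawley) rats and of mice of the C57BL/6 strain, aged 24 h, and were used at passage 1. Those of the model groups (RM in rat, MM in mouse) received IL-1β at 20 ng/ml for 24 h, and those of the control groups (RC and MC) did not. Each group had 3 libraries, 12 in all, and the culture time of the controls is not given. The strain label changes from library to library in mouse, from C57BL/6 to C57BL/9, whereas the methods name C57BL/6 for all mice.

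Glycolysis splits glucose into pyruvate and yields ATP without oxygen. Glucose enters through carriers of the SLC2A (GLUT) family, is trapped as glucose 6-phosphate by hexokinase, and reaches pyruvate through phosphofructokinase, aldolase, Gapdh, Pgk1, enolase and pyruvate kinase. Lactate dehydrogenase turns pyruvate into lactate, which leaves through carriers of the SLC16A (MCT) family, while the pyruvate dehydrogenase complex sends pyruvate into the mitochondria and is switched off by its kinases (Pdk). Cartilage has no blood vessels, and chondrocytes draw most of their ATP from glycolysis. Several of these steps have isozymes coded by separate genes, such as the muscle enolase Eno3 beside the widespread Eno1.

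Levels are given as scaled FPKM, that is, the deposited FPKM (reads per kilobase of gene, relative to the library's total on genes) divided by the library's TMM factor. This factor of edgeR corrects for composition, that is, for a few genes taking up many of the reads. It was 0.9941 to 1.008 in rat, 1.099 to 1.104 in MC and 0.905 to 0.9105 in MM, so the correction matters in mouse. Over all genes of the mouse test the median log2 fold change was -0.02, and it was -0.29 when libraries were scaled by size alone. In rat these medians were 0.01 and 0.02. Libraries held from 16841580 to 25903459 reads on genes. Libraries of a group differed beyond counting noise, with a chi-square per gene of 12.2 to 27.6 between RC libraries, 5.94 to 6.52 in RM and 1.88 to 2.45 in both mouse groups. Changes are log2 fold changes of model against control with their standard errors (SE), and the adjusted P comes from edgeR's quasi-likelihood test over all genes of a species. In the tests, "rose" and "fell" stand for an adjusted P under 0.05. The methods speak of 3 independent samples per group, and nothing says whether these were separate animals, so P measures the spread between these samples, which may be technical.

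The chondrocyte label was checked against its markers. All 10 chondrocyte genes of the list (Col2a1, Acan, Sox9, Matn1, Matn3, Comp, Cnmd, Hapln1, Col9a1 and Col11a1) were expressed in both species and fell in both models, their summed scaled FPKM going from between 5110 and 5750 in RC to between 1990 and 2050 in RM and from between 2180 and 2220 in MC to between 232 and 246 in MM. Fibroblast genes were also abundant, and they moved both ways. In rat 3 of 8 rose and 3 fell, with sums of 3880 to 4380 in RC and 2870 to 3000 in RM. In mouse 4 of 8 rose and 4 fell, with sums of 2980 to 3010 in MC and 2040 to 2060 in MM. Of the macrophage and leukocyte list, 2 genes rose and 2 fell among the 6 tested in rat, with sums of 20.6 to 25.1 in RC and 32.3 to 37.0 in RM, and 4 of 4 rose in mouse, with sums of 6.76 to 7.52 in MC and 38.1 to 40.8 in MM. Cd14 held most of the sum in both models, with means of 12.4 in RC, 22.6 in RM, 1.7 in MC and 26.5 in MM. Adgre1, Tyrobp and Fcer1g had too few reads to be tested in mouse. The leukocyte gene Ptprc reached at most 0.0880 in rat and 0.00588 in mouse, and Itgam was at 0 in all mouse libraries. Beside these marker counts, 18.3% of all genes tested rose and 16.8% fell in rat, and 37.4% rose and 37.6% fell in mouse. The part of these cell type markers in the changes below was not tested. In such bulk samples, fewer cells of a type and less RNA per cell cannot be told apart.

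In rat, 41 of the 42 genes had enough reads to be tested. Of these 21 rose and 4 fell, where 18.3% of all 13303 genes tested rose and 16.8% fell. In mouse, 43 of the 44 genes passed, and 32 rose and 8 fell, where 37.4% of 14774 genes rose and 37.6% fell. By the criteria of the study, read here as a raw P under 0.05, a log2 fold change of 0.85 or more up or down and an FPKM of 1 or more in a library, 5 genes were higher and 1 was lower in RM, with backgrounds of 4.64% and 3.9%, and 1 of the 5 is Eno2, which rests on library RM1. By the same criteria 28 genes were higher and 3 lower in MM, with backgrounds of 12.6% and 13%. The median log2 fold change of these genes was 0.28 in rat, with a range from -2.12 to 2.16, and 2.03 in mouse, with a range from -2.53 to 4.65. Together they took 1.30% ± 0.0964 (SD, n = 3) of all reads counted in RC and 1.72% ± 0.0493 in RM, against 1.12% ± 0.01 in MC and 3.71% ± 0.0577 in MM.

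**Figure D1:**
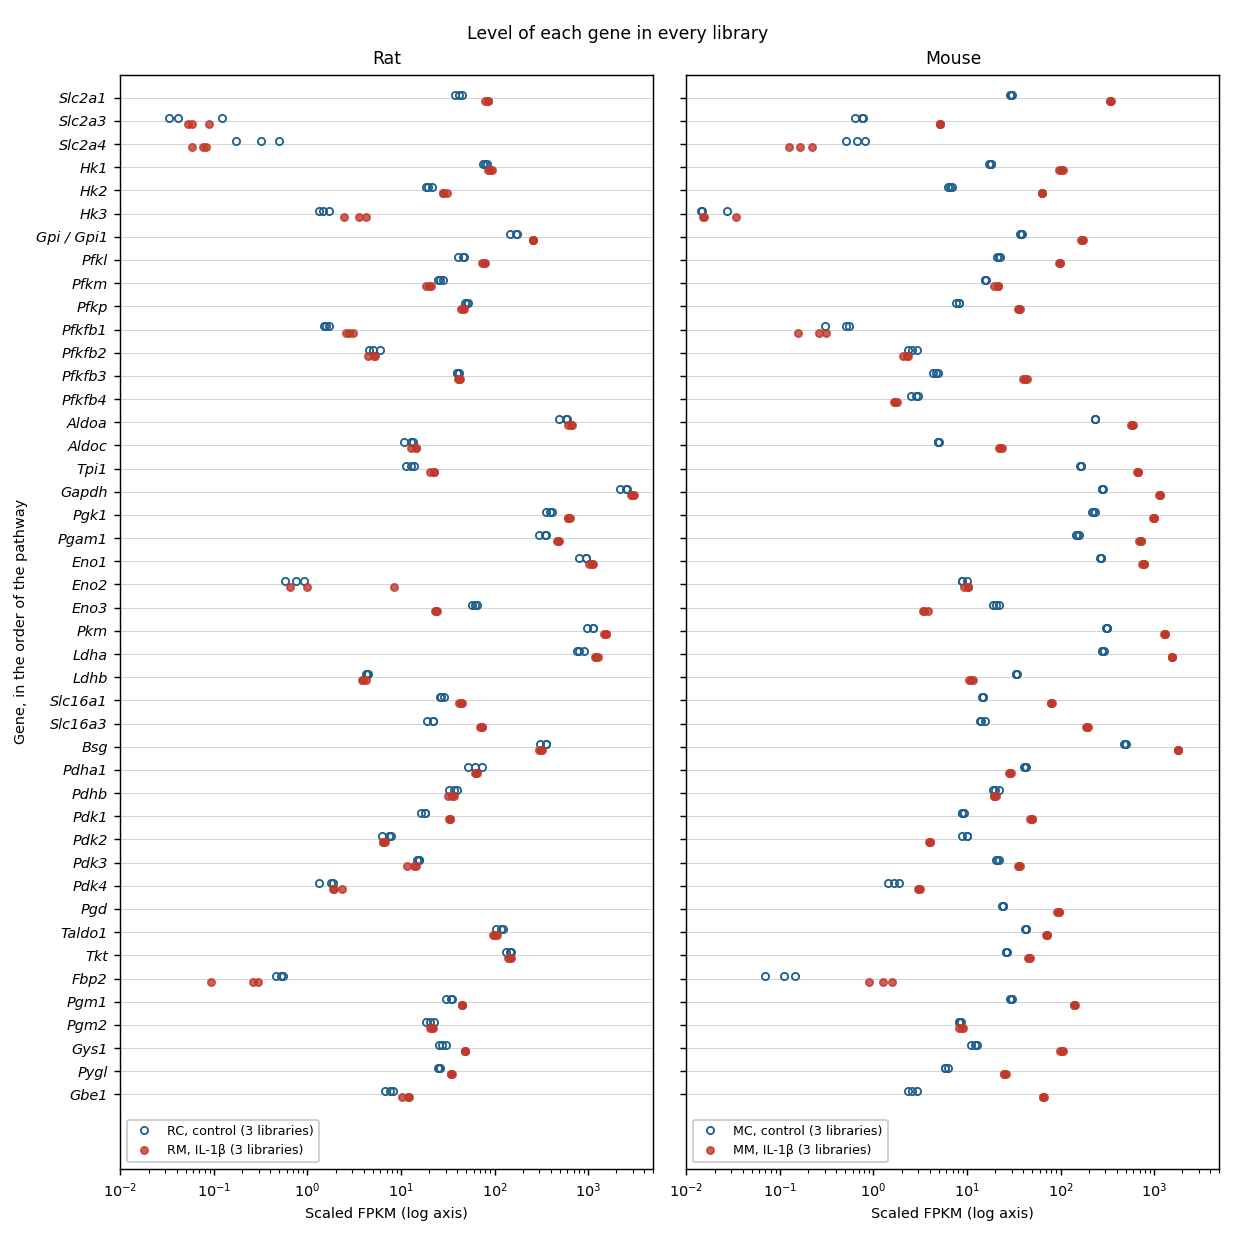
Scaled FPKM on a log axis of each gene in the order of the pathway, in rat (left) and mouse (right), with 1 point per library, open for the controls (RC, MC) and filled for the IL-1β models (RM, MM). In mouse the open and filled points of most genes stand far apart, as for Slc2a1 (28.8 to 30.0 in MC and 338 to 344 in MM), whereas in rat they lie close, and 1 RM library of Eno2 (8.50) stands away from the other points of its gene.

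Of the 40 genes tested in both species, 19 rose in both, as did 9.29% of the 10953 shared genes. These were Slc2a1, Hk2, Gpi/Gpi1, Pfkl, Aldoa, Tpi1, Gapdh, Pgk1, Pgam1, Eno1, Pkm, Ldha, Slc16a1, Slc16a3, Pdk1, Pgm1, Gys1, Pygl and Gbe1. The muscle isoforms Eno3 and Slc2a4 fell in both, as did 10.1% of the shared genes. Pfkm and Fbp2 fell in rat and rose in mouse, and Pfkfb1 rose in rat and fell in mouse, against 5.18% and 7.28% of the shared genes. In mouse but not past the threshold in rat, 9 genes rose (Hk1, Pfkp, Pfkfb3, Aldoc, Bsg, Pdk3, Pdk4, Taldo1 and Tkt) and 4 fell (Pfkfb2, Ldhb, Pdha1 and Pdk2), against 24.5% and 22.5% of the shared genes. Eno2, Pdhb and Pgm2 passed in neither. The test of the difference itself, the mouse change minus the rat change over the 10953 shared genes tested, was above 0 for 30 of these 40 genes and below 0 for 6 among those it called, against 31.4% and 32.3% of all shared genes. A value below 0 can also be a deeper fall in mouse, as for Eno3, Ldhb, Pdk2 and Pdha1, and that of Eno2 rests on RM1. Across the 40 genes the changes of both species had a Spearman rho of 0.51 and a Pearson r of 0.48, against 0.18 and 0.38 across the 10953 shared genes. Genes are not independent replicates, and no test was made of these values.

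**Figure D2:**
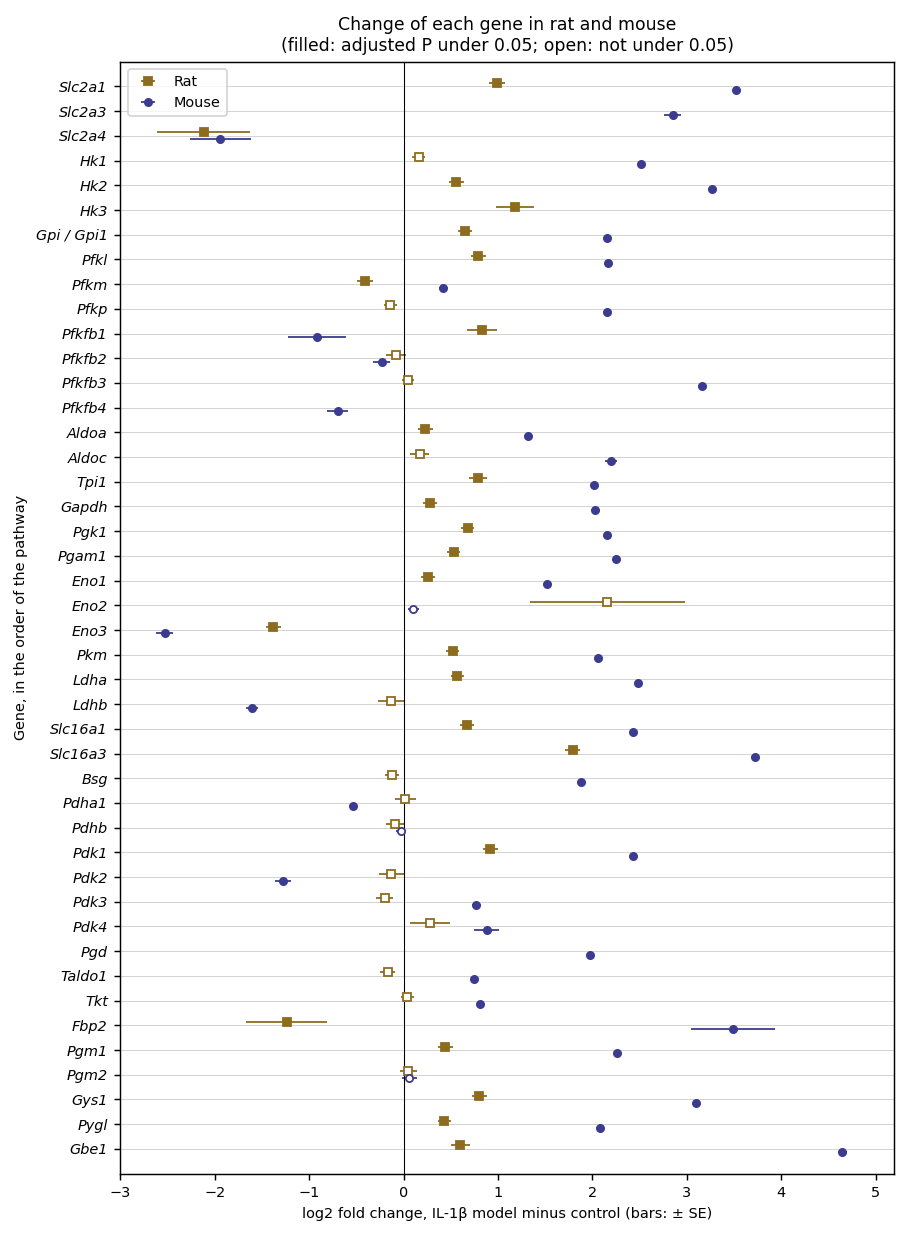
Log2 fold change of model against control (horizontal axis, bars ± SE) of each gene tested, squares for rat and circles for mouse, filled where the adjusted P was under 0.05. The mouse circle lies to the right of the rat square for most genes, with medians of 2.03 and 0.28, and to its left for Eno3, Ldhb, Pdk2, Pdha1, Pfkfb1, Pfkfb2 and Eno2.

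Many of these genes are textbook targets of the hypoxia-inducible factors, which bind a short core (ACGTG), and of E-box factors such as Myc (CACGTG). The promoters of 38 of the rat genes were found in RefSeq for the rat build GRCr8, as windows from 250 bases before to 50 bases after the start site. The core ACGTG, on either strand, was in 20 of the 38 (52.6%) and in 19.3% of all 33469 promoters of that table. The listed genes were counted with 1 promoter each, whereas the promoters of the whole table were not reduced to 1 per gene. CACGTG, each match of which also holds ACGTG on both strands, was in 6 (15.8%) against 6.42%, and GGGACTTTC, the start of the NF-κB consensus, was in 0 of the 38 against 0.326%. The promoters of these genes held more G and C, with a median of 59.7% against 51.7%, and the part of base composition in these shares was not tested. By call in rat, ACGTG was in 11 of 20 promoters of genes that rose, in 1 of 2 of those that fell and in 8 of 16 of the others. A match is a run of letters in this window and not evidence of binding. The following promoters belong to genes that rose in both species and are shown because they hold a match, chosen after the matches were seen, namely Ldha and Slc16a1 with the most matches and Slc2a1 and Pdk1 with the largest rat changes of the rest. An E-box counts here as 2 matches of ACGTG, 1 on each strand. The 3 matches of Ldha and of Slc16a1 thus lie at 2 sites, and Pdk1 also has 2 sites. Capitals mark ACGTG on either strand and CACGTG.
Slc2a1 (GRCr8 chr5:138002272-138002571, plus strand): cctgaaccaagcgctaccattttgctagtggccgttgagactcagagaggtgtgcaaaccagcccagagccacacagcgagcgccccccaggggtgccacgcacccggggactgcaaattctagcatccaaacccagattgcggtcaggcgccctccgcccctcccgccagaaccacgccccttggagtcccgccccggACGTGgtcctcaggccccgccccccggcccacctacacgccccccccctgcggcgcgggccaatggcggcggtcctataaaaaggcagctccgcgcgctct
Pdk1 (GRCr8 chr3:77113264-77113563, plus strand): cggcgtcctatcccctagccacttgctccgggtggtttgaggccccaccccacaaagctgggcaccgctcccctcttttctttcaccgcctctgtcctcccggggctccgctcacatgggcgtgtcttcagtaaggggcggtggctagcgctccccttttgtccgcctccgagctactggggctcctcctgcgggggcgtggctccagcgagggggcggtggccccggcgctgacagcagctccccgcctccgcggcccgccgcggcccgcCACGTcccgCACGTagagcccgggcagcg
Ldha (GRCr8 chr1:106507842-106508141, plus strand): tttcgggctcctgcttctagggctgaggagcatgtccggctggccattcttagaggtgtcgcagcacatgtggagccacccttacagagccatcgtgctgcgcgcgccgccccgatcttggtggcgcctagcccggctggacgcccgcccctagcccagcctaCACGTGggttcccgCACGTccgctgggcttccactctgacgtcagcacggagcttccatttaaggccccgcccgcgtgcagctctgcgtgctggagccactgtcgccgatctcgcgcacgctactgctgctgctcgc
Slc16a1 (GRCr8 chr2:194812410-194812709, plus strand): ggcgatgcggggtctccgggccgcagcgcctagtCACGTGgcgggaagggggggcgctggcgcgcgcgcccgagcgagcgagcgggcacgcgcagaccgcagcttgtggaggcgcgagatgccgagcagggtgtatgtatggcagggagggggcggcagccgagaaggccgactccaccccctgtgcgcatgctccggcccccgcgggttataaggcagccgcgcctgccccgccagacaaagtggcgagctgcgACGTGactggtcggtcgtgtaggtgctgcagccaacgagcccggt
The match of Slc2a1 began 51 bases before the start site. Those of Pdk1 began 22 and 31 bases after it on the other strand. In Ldha an E-box began 87 bases before the start site and a further core 73 bases before it, and in Slc16a1 an E-box began 216 bases before and a core 6 bases after the start site. The promoter of Slc16a3, the gene with the largest rise in rat among those that rose in both species, held none of the 3 motifs.

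Of the glucose carriers listed, Slc2a1 (GLUT1), the basal carrier of most cells, had by far the highest level and rose in both species (mouse ENSMUSG00000028645, GRCm38 chr4:119108711-119137983). Slc2a1 stood at 38.1, 45.2 and 41.6 in RC and 84.8, 78.4 and 85.6 in RM, a 1.99-fold rise (log2 fold change 0.99 ± 0.08, adjusted P = 7.82e-06). In mouse it stood at 29.97, 29.8 and 28.8 in MC and 338, 338 and 344 in MM, an 11.5-fold rise (log2 fold change 3.52 ± 0.031, adjusted P = 8.22e-69). Each model library was above each control library in both species, and the change was larger in mouse (difference 2.53 ± 0.084, adjusted P = 1.51e-13). Slc2a3 (GLUT3), a carrier of high affinity known from neurons, rose in mouse from a low level, with 0.748, 0.766 and 0.627 in MC and 5.097, 5.19 and 5.11 in MM (log2 fold change 2.85 ± 0.093, adjusted P = 5.57e-37). In rat it had 3 to 10 reads per library and was not tested. Slc2a4 (GLUT4), the insulin-regulated carrier of muscle and fat, was near the limit of detection and fell in both species. Its counts were 20, 10 and 26 reads in RC and 3, 5 and 5 in RM (log2 fold change -2.12 ± 0.49, adjusted P = 0.00749) and 33, 53 and 46 reads in MC and 14, 10 and 7 in MM (log2 fold change -1.94 ± 0.32, adjusted P = 2.63e-07), and its change did not pass the test of the difference between the species (0.17 ± 0.58). Its FPKM stayed under 1 in every library. Adipocyte genes were also measured, with Fabp4, the gene that makes up nearly all of the sum, as the 1 tested and higher in rat (sums of 4.52 to 6.39 in RC and 44.0 to 68.7 in RM) and 2 of 3 lower in mouse (11.4 to 12.3 in MC and 6.54 to 7.71 in MM). Of all genes tested, 18.3% rose in rat and 37.6% fell in mouse. Muscle genes are given with Eno3, and the part of either list in the fall of Slc2a4 was not tested.

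Of the hexokinases, which trap glucose in the cell, Hk1 was the most abundant in both species and Hk2, the form induced in many growing cells, changed more. Hk1 stood at 75.8, 83.4 and 78.9 in RC and 92.98, 85.2 and 88.5 in RM (log2 fold change 0.16 ± 0.069, adjusted P = 0.0884). In mouse it stood at 17.2, 17.96 and 17.9 in MC and 96.2, 100.7 and 107 in MM, a 5.73-fold rise (log2 fold change 2.52 ± 0.033, adjusted P = 2.83e-59). Hk2 stood at 19.3, 21.2 and 18.6 in RC and 30.9, 28.1 and 28.1 in RM (log2 fold change 0.56 ± 0.078, adjusted P = 0.000312). Mouse Hk2 stood at 6.88, 6.63 and 6.22 in MC and 63.4, 62.96 and 63.7 in MM (log2 fold change 3.27 ± 0.04, adjusted P = 3.31e-61). The groups of Hk2 did not overlap in either species, and its 9.63-fold rise in mouse was larger than its 1.47-fold rise in rat (difference 2.71 ± 0.087, adjusted P = 1.17e-13). Hk3, a form known from leukocytes, was measurable only in rat, at 1.71, 1.47 and 1.34 in RC and 4.22, 2.46 and 3.58 in RM (log2 fold change 1.18 ± 0.2, adjusted P = 0.00121). In mouse Hk3 had 1 or 2 reads per library, so no fold is given. Summed over the 3 hexokinases, the model mean was 1.21 times the control mean in rat and 6.78 times in mouse.

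Glucose-6-phosphate isomerase (Gpi/Gpi1), which turns glucose 6-phosphate into fructose 6-phosphate, rose in both species. It stood at 148, 176 and 169.9 in RC and 257, 255 and 261 in RM (log2 fold change 0.65 ± 0.075, adjusted P = 9.25e-05). Mouse Gpi1 stood at 38.3, 37.1 and 37.7 in MC and 164, 172 and 169 in MM (log2 fold change 2.16 ± 0.029, adjusted P = 1.04e-58).

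Phosphofructokinase makes the committed step of glycolysis, and its isozymes changed unequally. The liver form Pfkl (mouse GRCm38 chr10:77986947-78010083) stood at 40.3, 46.02 and 46.7 in RC and 80, 73.2 and 77.2 in RM (log2 fold change 0.79 ± 0.078, adjusted P = 3.20e-05). In mouse Pfkl stood at 20.96, 22.4 and 21.9 in MC and 96.3, 98.1 and 99.4 in MM (log2 fold change 2.17 ± 0.032, adjusted P = 1.09e-56). The muscle form Pfkm fell in rat, with 24.96 to 28.2 in RC and 18.6 to 21.1 in RM (log2 fold change -0.41 ± 0.081, adjusted P = 0.00328). Mouse Pfkm rose, with 15.4 to 15.9 in MC and 19.6 to 21.6 in MM (log2 fold change 0.42 ± 0.049, adjusted P = 1.54e-11), and these changes differed (difference 0.83 ± 0.095, adjusted P = 8.93e-07). The platelet form Pfkp stood at 48.6, 50.3 and 51.5 in RC and 47.4, 43.4 and 46.04 in RM, groups that did not overlap although the change missed the threshold (log2 fold change -0.14 ± 0.069, adjusted P = 0.151). Pfkp rose 4.47-fold in mouse, with 8.19, 7.66 and 8.22 in MC and 35.1, 36.02 and 36.6 in MM (log2 fold change 2.16 ± 0.034, adjusted P = 7.39e-55).

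The Pfkfb enzymes make and break fructose 2,6-bisphosphate, the strongest activator of phosphofructokinase, and Pfkfb3, the form with the highest kinase activity of the family, rose in mouse and did not pass the test in rat. In rat Pfkfb3 stood at 39.6, 41.4 and 39.5 in RC and 41.7, 42.3 and 40.4 in RM, with overlapping groups (log2 fold change 0.05 ± 0.063, adjusted P = 0.613). In mouse it stood at 4.37, 4.67 and 4.897 in MC and 40.1, 41.2 and 43.8 in MM, an 8.96-fold rise (log2 fold change 3.16 ± 0.043, adjusted P = 2.02e-58; GRCm38 chr2:11471433-11554077), and the difference between the species was 3.12 ± 0.078, adjusted P = 8.09e-15. The tables of the species were normalized separately, so levels were not compared between rat and mouse. Pfkfb1 rose in rat, with 1.49 to 1.696 in RC and 2.59 to 3.08 in RM (log2 fold change 0.83 ± 0.16, adjusted P = 0.00275), and fell in mouse at an FPKM under 1, with overlapping values of 0.304 to 0.552 in MC and 0.154 to 0.313 in MM (log2 fold change -0.92 ± 0.31, adjusted P = 0.00672). Pfkfb2 stood at 4.59 to 6.04 in RC and 4.48 to 5.25 in RM (log2 fold change -0.08 ± 0.11, adjusted P = 0.645). Mouse Pfkfb2 stood at 2.34 to 2.93 in MC and 2.08 to 2.33 in MM (log2 fold change -0.23 ± 0.089, adjusted P = 0.018). Pfkfb4 fell in mouse, with 2.498 to 2.98 in MC and 1.65 to 1.78 in MM (log2 fold change -0.70 ± 0.11, adjusted P = 5.42e-08).

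Aldolase splits the sugar into 3-carbon units. Aldoa, the main aldolase of both species, stood at 493, 589.7 and 579 in RC and 666, 618 and 672 in RM (log2 fold change 0.23 ± 0.078, adjusted P = 0.039). The adjusted P of rat Aldoa exceeded 0.05 by limma on log2(FPKM + 1) (0.0542) and without RC1, RC3 or any single RM library, reaching 0.126. In mouse Aldoa stood at 233, 232 and 236 in MC and 573, 588 and 585 in MM (log2 fold change 1.32 ± 0.026, adjusted P = 1.37e-49; ENSMUSG00000030695, GRCm38 chr7:126795234-126800751). The neighbouring row that is also named Aldoa (ENSMUSG00000114515) held 0.276 to 1.58, with lower values in MM (log2 fold change -1.90 ± 0.43), and reads at the border of such rows are uncertain. Aldoc, the form known from brain, stood at 10.8, 12.8 and 13.5 in RC and 14.4, 14.4 and 12.9 in RM (log2 fold change 0.17 ± 0.1, adjusted P = 0.22). Mouse Aldoc stood at 4.92, 4.92 and 5.02 in MC and 22.5, 23.6 and 22.1 in MM (log2 fold change 2.20 ± 0.061, adjusted P = 4.21e-41).

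The lower steps from triose phosphate to 2-phosphoglycerate, each with a single main gene, rose in both species, with log2 fold changes of 0.28 to 0.79 in rat and of 2.02 to 2.25 in mouse. Tpi1, which interconverts the triose phosphates, stood at 11.3, 13.6 and 12.8 in RC and 22.5, 20.6 and 22.3 in RM (log2 fold change 0.79 ± 0.092, adjusted P = 9.56e-05). Mouse Tpi1 stood at 164, 163 and 167 in MC and 654, 674 and 675 in MM (log2 fold change 2.02 ± 0.027, adjusted P = 3.62e-59). Its rat level, from 387 to 777 reads per library, was far under that of the neighbouring steps, which was not so in mouse. Gapdh, the step that makes NADH and a gene often used as a loading control, was the most abundant of the list in rat.
Gapdh stood at 2171, 2524 and 2640 in RC and 2935, 2869 and 3090 in RM (log2 fold change 0.28 ± 0.076, adjusted P = 0.0168). In mouse Gapdh stood at 278, 286 and 280.4 in MC and 1129, 1172 and 1148 in MM, a 4.08-fold rise (log2 fold change 2.03 ± 0.024, adjusted P = 2.10e-61; GRCm38 chr6:125161715-125166467). The 1.21-fold rise in rat was no longer past the threshold by limma on log2(FPKM + 1) (adjusted P = 0.062) or without RM1 (0.054) or RM3 (0.0703). Pgk1, the first step that yields ATP, stood at 355, 395 and 408 in RC and 638, 608 and 605 in RM (log2 fold change 0.68 ± 0.069, adjusted P = 3.73e-05). Mouse Pgk1 stood at 225, 218 and 231 in MC and 979, 1008 and 999 in MM (log2 fold change 2.15 ± 0.027, adjusted P = 1.83e-60). Pgam1 stood at 300.4, 352 and 343 in RC and 470.1, 474 and 489 in RM (log2 fold change 0.53 ± 0.072, adjusted P = 0.00027). Mouse Pgam1 stood at 147, 149.9 and 157 in MC and 693, 729 and 732 in MM (log2 fold change 2.25 ± 0.029, adjusted P = 2.35e-59). The groups of these genes did not overlap in either species. Reads of the copies annotated beside them in mouse were few, Pgam1-ps2 holding 1.14 to 1.64% and Pgk1-rs7 0.137 to 0.265% of the reads of its parent gene.

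The enolases moved apart. Eno1, the widespread form, stood at 808, 949.5 and 957 in RC and 1110, 1022 and 1123 in RM (log2 fold change 0.26 ± 0.076, adjusted P = 0.0226), a call that was lost without RM1 (adjusted P = 0.0866) or RM3 (0.0852). In mouse Eno1 stood at 270.0, 267 and 269.7 in MC and 750.0, 787 and 783 in MM (log2 fold change 1.52 ± 0.024, adjusted P = 1.35e-54). Eno3, the muscle form (mouse GRCm38 chr11:70657202-70662513), fell in both species. It stood at 56.9, 61.9 and 64.8 in RC and 22.98, 24.2 and 23.4 in RM (log2 fold change -1.38 ± 0.078, adjusted P = 6.18e-07). In mouse it fell 5.76-fold, with 21.8, 19.1 and 20.5 in MC and 3.36, 3.497 and 3.83 in MM (log2 fold change -2.53 ± 0.092, adjusted P = 1.83e-34), and the fall was deeper in mouse (difference -1.15 ± 0.11, adjusted P = 1.56e-07). Muscle markers moved with it. Of 10 muscle genes, 1 of 2 tested fell in rat, with sums of 6.69 to 7.51 in RC and 3.96 to 4.50 in RM, and 3 of 3 fell in mouse, with sums of 5.43 to 6.45 in MC and 0.479 to 1.01 in MM, and Ckm, which defines differentiated muscle, was at 0 in all RM and MC libraries and at most 0.0331 in the others. Their part in the fall of Eno3 was not tested, and of all genes tested 16.8% fell in rat and 37.6% in mouse. Eno2, the neuronal form, was set by 1 library in rat, with 32, 39 and 43 reads in RC and 387, 38 and 54 in RM. Its log2 fold change was 2.16 ± 0.82 (adjusted P = 0.0639) with RM1 and 0.15 (adjusted P = 0.768) without it. In mouse Eno2 stood at 8.76 to 9.98 in MC and 9.2 to 10.3 in MM (log2 fold change 0.10 ± 0.058, adjusted P = 0.0974), and its log2 fold change was -0.17 (adjusted P = 0.00514) with library size alone.

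Pyruvate kinase and lactate dehydrogenase close the path to lactate, and both main genes rose in both species. Pkm stood at 981, 1129 and 1124 in RC and 1574, 1483 and 1575 in RM (log2 fold change 0.52 ± 0.068, adjusted P = 0.000206). In mouse Pkm stood at 315, 310.1 and 312 in MC and 1290, 1300 and 1317 in MM, a 4.17-fold rise (log2 fold change 2.06 ± 0.023, adjusted P = 7.86e-63; GRCm38 chr9:59656368-59679375). Gene counts do not separate its M1 and M2 splice forms. Ldha, whose subunit favours the making of lactate, stood at 764, 809 and 898 in RC and 1280, 1205 and 1189 in RM (log2 fold change 0.57 ± 0.071, adjusted P = 0.000151). In mouse Ldha stood at 279, 277 and 289.6 in MC and 1569, 1574 and 1560 in MM, a 5.56-fold rise that took it to the second highest level of the list in MM after Bsg (log2 fold change 2.48 ± 0.025, adjusted P = 6.51e-66; GRCm38 chr7:46841475-46855627). Ldhb, whose subunit favours the use of lactate, went the other way in mouse. It stood at 34.03, 33.8 and 33.8 in MC and 10.5, 11.7 and 11 in MM, a 3.06-fold fall (log2 fold change -1.61 ± 0.065, adjusted P = 4.48e-32). In rat Ldhb was low in both groups, at 4.22, 4.49 and 4.33 in RC and 3.82, 3.88 and 4.23 in RM, with overlapping values (log2 fold change -0.13 ± 0.14, adjusted P = 0.511), and the change was lower in mouse (difference -1.49 ± 0.12, adjusted P = 1.44e-08).

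Lactate carriers gave the largest rise in rat among the genes that rose in both species. Slc16a3 (MCT4), the lactate exporter of glycolytic cells (mouse GRCm38 chr11:120948480-120960868), stood at 19.1, 22.1 and 21.9 in RC and 72.9, 70.6 and 74.3 in RM, a 3.45-fold rise (log2 fold change 1.79 ± 0.08, adjusted P = 1.21e-07). In mouse Slc16a3 stood at 14.1, 13.9 and 15.5 in MC and 185, 193 and 195 in MM, a 13.2-fold rise (log2 fold change 3.72 ± 0.035, adjusted P = 2.75e-67). The lowest RM library held more than 3 times the highest RC library, and the change was larger still in mouse (difference 1.93 ± 0.087, adjusted P = 7.00e-12). Slc16a1 (MCT1), which carries lactate both ways, stood at 28.7, 26.3 and 27.03 in RC and 41.6, 43.3 and 45.4 in RM (log2 fold change 0.67 ± 0.073, adjusted P = 6.39e-05). Mouse Slc16a1 stood at 14.9, 14.6 and 14.8 in MC and 79.2, 81.4 and 79.1 in MM (log2 fold change 2.43 ± 0.036, adjusted P = 3.69e-56). Bsg (basigin), the partner that brings both carriers to the membrane, did not pass the test in rat. It stood at 306, 352 and 359 in RC and 317, 299.7 and 320.3 in RM, with overlapping groups (log2 fold change -0.12 ± 0.074, adjusted P = 0.237). In mouse Bsg was the most abundant gene of the list, at 504, 488 and 483 in MC and 1811, 1820 and 1808 in MM (log2 fold change 1.88 ± 0.025, adjusted P = 4.06e-59).

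The subunits of pyruvate dehydrogenase had log2 fold changes from -0.54 to 0.02, and its kinases, which block it, changed unequally. Pdha1, the catalytic subunit, stood at 52.05 to 73.4 in RC and 61.4 to 65.5 in RM (log2 fold change 0.02 ± 0.11, adjusted P = 0.924). Mouse Pdha1 fell, with 40.8 to 42.9 in MC and 28.2 to 29.5 in MM (log2 fold change -0.54 ± 0.038, adjusted P = 2.16e-20). Pdhb stood at 32.96 to 40.2 in RC and 31.9 to 36.6 in RM (log2 fold change -0.09 ± 0.092). Mouse Pdhb stood at 18.9 to 21.8 in MC and 19.2 to 20.6 in MM (log2 fold change -0.03 ± 0.047), with overlapping groups in both species. With library size alone, the log2 fold change of mouse Pdhb was -0.31 (adjusted P = 1.31e-08). Pdk1, the kinase known as a hypoxia target (mouse GRCm38 chr2:71873224-71903858), stood at 17.9, 16.5 and 18.1 in RC and 33.6, 33.4 and 32.3 in RM (log2 fold change 0.92 ± 0.075, adjusted P = 8.38e-06). In mouse Pdk1 stood at 8.73, 8.89 and 9.38 in MC and 47.3, 49.2 and 49.3 in MM, a 5.39-fold rise against 1.89-fold in rat (log2 fold change 2.43 ± 0.036, adjusted P = 5.86e-56). Pdk2, a widespread kinase, stood at 6.24, 7.75 and 7.51 in RC and 6.68, 6.48 and 6.46 in RM (log2 fold change -0.13 ± 0.13, adjusted P = 0.472). Mouse Pdk2 fell, with 8.89, 10.02 and 9.98 in MC and 3.97, 3.95 and 3.99 in MM (log2 fold change -1.28 ± 0.082, adjusted P = 4.48e-22). Pdk3 stood at 14.9 to 15.5 in RC and 11.7 to 14.4 in RM (log2 fold change -0.20 ± 0.091, adjusted P = 0.118). Mouse Pdk3 rose, with 20.5 to 21.9 in MC and 34.8 to 36.9 in MM (log2 fold change 0.77 ± 0.046, adjusted P = 1.81e-23). Pdk4, a kinase induced by fasting, was low, at 1.87, 1.79 and 1.33 in RC and 2.32, 1.91 and 1.87 in RM (log2 fold change 0.28 ± 0.21, adjusted P = 0.326). Mouse Pdk4 stood at 1.89, 1.44 and 1.67 in MC and 2.97, 3.096 and 3.17 in MM (log2 fold change 0.88 ± 0.13, adjusted P = 6.87e-09).

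The listed genes of the pentose phosphate branch, which makes NADPH and ribose, rose in mouse, and those tested did not pass the threshold in rat. In mouse Pgd, the second dehydrogenase of the branch (GRCm38 chr4:149149991-149166771), stood at 23.9, 23.99 and 24.4 in MC and 96.04, 95.3 and 92.3 in MM (log2 fold change 1.97 ± 0.031, adjusted P = 8.91e-55). Taldo1 and Tkt, which return the sugars to glycolysis, rose in mouse, with 41.5 to 43.2 in MC and 70.8 to 72.3 in MM (log2 fold change 0.75 ± 0.038, adjusted P = 1.01e-26) and with 25.96 to 26.8 in MC and 45.2 to 47.3 in MM (log2 fold change 0.81 ± 0.032, adjusted P = 1.59e-32). In rat Taldo1 stood at 104 to 123 in RC and 96.7 to 108 in RM (log2 fold change -0.17 ± 0.081, adjusted P = 0.138) and Tkt at 132 to 149 in RC and 138 to 151 in RM (log2 fold change 0.04 ± 0.071, adjusted P = 0.724).

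Fbp2, the muscle form of fructose bisphosphatase, which runs against phosphofructokinase, was scarce and moved in opposite directions. Its counts were 18, 16 and 13 reads in RC and 8, 9 and 3 in RM (log2 fold change -1.24 ± 0.43, adjusted P = 0.0466) and 4, 3 and 2 reads in MC and 42, 33 and 21 in MM (log2 fold change 3.49 ± 0.44, adjusted P = 1.70e-10). In mouse the scaled FPKM were 0.145, 0.11 and 0.0687 in MC and 1.58, 1.26 and 0.898 in MM. The rat call was lost by DESeq2, without a filter on low counts and without any single library, with adjusted P up to 0.151.

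Genes of glycogen turnover held the largest rise of the list. Gbe1, which branches glycogen (mouse ENSMUSG00000022707, GRCm38 chr16:70313949-70569716), stood at 2.92, 2.36 and 2.55 in MC and 65.5, 65.8 and 65.2 in MM, a 25.1-fold rise (log2 fold change 4.65 ± 0.048, adjusted P = 7.91e-65). In rat Gbe1 stood at 8.18, 6.79 and 7.699 in RC and 12.3, 11.7 and 10.3 in RM, a 1.52-fold rise (log2 fold change 0.60 ± 0.1, adjusted P = 0.00102), and the difference between the species was 4.05 ± 0.12, adjusted P = 5.21e-14. Gys1, the glycogen synthase of muscle and most tissues other than liver, stood at 25.3, 30.5 and 27.4 in RC and 48.9, 47.8 and 47.9 in RM (log2 fold change 0.80 ± 0.08, adjusted P = 3.51e-05). In mouse Gys1 rose 8.56-fold, with 12.8, 10.99 and 12.3 in MC and 98.7, 104 and 106 in MM (log2 fold change 3.10 ± 0.039, adjusted P = 5.63e-60). Pygl, the liver form of the phosphorylase that breaks glycogen, stood at 24.9, 25.96 and 25.8 in RC and 35.2, 34.1 and 34.2 in RM (log2 fold change 0.43 ± 0.067, adjusted P = 0.000601). Mouse Pygl stood at 6.29, 5.87 and 5.78 in MC and 24.6, 26.3 and 25.2 in MM (log2 fold change 2.08 ± 0.044, adjusted P = 1.08e-47). Gys1 and Gbe1, which make glycogen, and Pygl, which breaks it, thus rose in the same model groups. Most other glycogen genes, from the wider list given below, did not rise. In rat 0 of 14 tested rose and 3 fell (median log2 fold change -0.08), where 18.3% and 16.8% of all genes did. Those that fell in rat were Pgm5, which lacks the activity of phosphoglucomutase, Stbd1 and Gaa. In mouse 3 of 15 rose and 9 fell (median -0.65), where 37.4% and 37.6% of all genes did. Pgm1, which links glucose 1-phosphate to glucose 6-phosphate, stood at 30.02, 35.5 and 34.2 in RC and 45.4, 44.9 and 45.4 in RM (log2 fold change 0.44 ± 0.079, adjusted P = 0.00156). Mouse Pgm1 stood at 28.7, 29.9 and 29.6 in MC and 138, 139.7 and 144 in MM (log2 fold change 2.26 ± 0.035, adjusted P = 2.09e-55). Pgm2 stood at 18.4 to 22.7 in RC and 20.3 to 21.9 in RM (log2 fold change 0.05 ± 0.09). Mouse Pgm2 stood at 8.17 to 8.63 in MC and 8.17 to 9.14 in MM (log2 fold change 0.06 ± 0.077), with overlapping groups in both.

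The isozymes of 9 steps were next set as shares of their step's summed FPKM in each library. With 3 libraries against 3 an exact permutation test, two-sided, cannot go below P = 0.1, so the shares are described by their means and SD (n = 3) and by whether the groups overlap. Shares did not overlap between model and control in 18 of 25 cases in rat and 26 of 26 in mouse, and shares of 1 step are not independent. Shares of a step with only 2 isozymes mirror each other. The mouse cases include Hk3, which had 1 or 2 reads per library in MC and in MM. Of the levels of all single genes tested, 47.9% did not overlap in rat and 76.5% in mouse. These are rates for levels, and no such rate was computed for shares. Pdk1 went from 42.0% ± 2.1 of the Pdk transcripts in RC to 60.2% ± 1.3 in RM and from 21.8% ± 0.76 in MC to 53.1% ± 0.37 in MM, so it became the leading kinase gene in mouse in place of Pdk3 (50.9% ± 1.8 in MC and 39.2% ± 0.47 in MM). Pfkl went from 36.7% ± 1.2 to 54.0% ± 0.16 of the phosphofructokinases in rat, taking the lead from Pfkp (41.5% ± 1.0 in RC and 32.1% ± 0.13 in RM), and from 47.9% ± 1.4 to 63.3% ± 0.42 in mouse. Slc16a3 went from 43.5% ± 3.1 to 62.6% ± 0.94 of the sum with Slc16a1 in rat and from 49.5% ± 1.4 to 70.5% ± 0.59 in mouse. Ldha made up 99.5% ± 0.041 of lactate dehydrogenase in RC and 99.7% ± 0.029 in RM, and went from 89.3% ± 0.24 in MC to 99.3% ± 0.036 in MM. Eno3 went from 6.34% ± 0.23 to 2.12% ± 0.16 of the enolases in rat and from 6.86% ± 0.37 to 0.453% ± 0.025 in mouse. Hk2 went from 19.6% ± 0.67 to 23.9% ± 0.51 of the hexokinases in rat and from 27.1% ± 1.4 to 38.5% ± 1.2 in mouse. Pfkfb3 was 85.6% ± 1.6 of its family in RC and 84.2% ± 0.058 in RM, with overlapping groups, and went from 44.3% ± 1.0 in MC to 90.9% ± 0.43 in MM. Rat Pfkfb4 was not in that sum. Slc2a1 made up 95.5% to 99.8% of the 3 glucose carriers on average in each group, and Aldoa 96.2% to 97.9% of the aldolases.

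**Figure D3:**
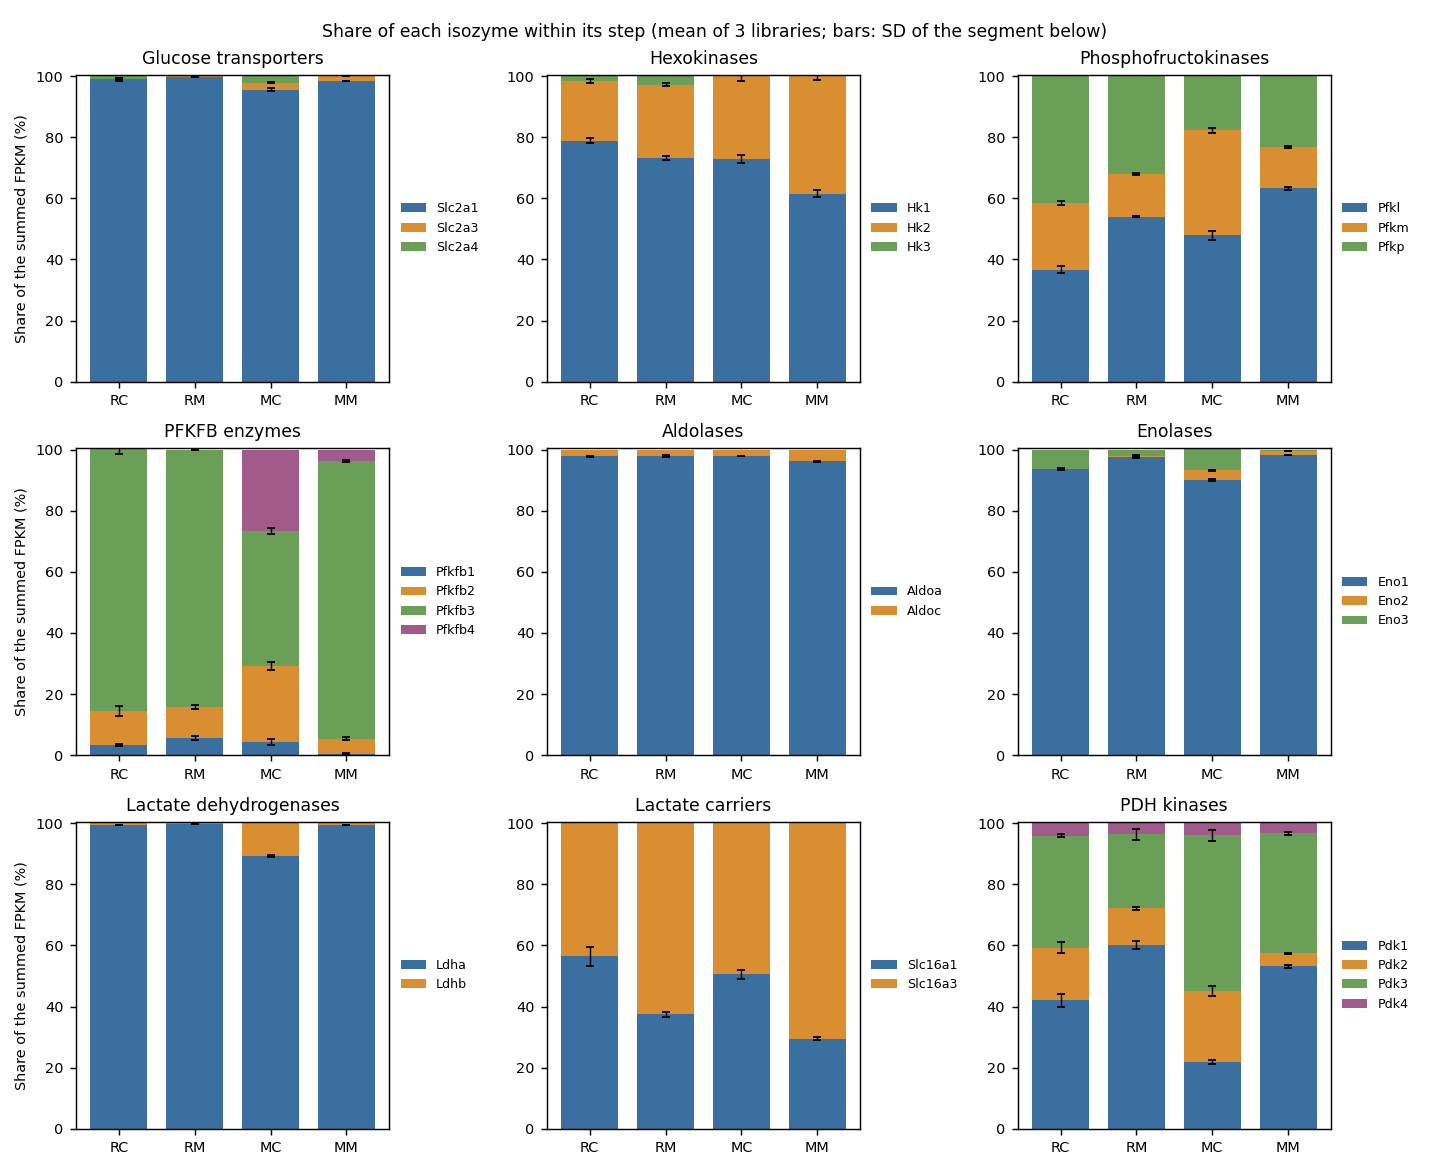
Share of each isozyme in the summed FPKM of its step (vertical axis, percent, stacked to 100) in RC, RM, MC and MM, with means of 3 libraries and bars for the SD of the segment below. The Pdk1, Pfkl and Slc16a3 segments widen from control to model in both species, the Eno3 segment narrows in both, and the Pfkfb3 segment widens in mouse and not in rat.

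Summed over isozymes, the scaled FPKM of every one of the 9 steps was higher in the mean of the model group in both species, with ratios of means from 1.05 (Pfkfb, 47.0 ± 1.15 in RC and 49.2 ± 1.12 in RM, SD, n = 3) to 2.40 (Slc16a) in rat and from 2.21 (Pdk) to 11.2 (Slc2a) in mouse. The ends of the path, where glucose enters (ratio 1.98 in rat and 11.2 in mouse) and lactate leaves (2.40 and 9.26), had the highest ratios in both species. Between them, the aldolase and enolase steps had ratios of 1.18 and 1.15 in rat and 2.54 and 2.64 in mouse. Other steps between the ends had higher ratios, with 1.21 and 6.78 for hexokinase and 1.48 and 5.0 for lactate dehydrogenase. Steps with a single main gene are not among these 9. Of those, Tpi1 rose 1.74-fold in rat and 4.05-fold in mouse and Pgk1 1.6-fold and 4.43-fold.

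Another 81 genes of glucose metabolism were counted around these. In rat 74 names were found, 64 genes were tested, 8 rose and 15 fell, with a median log2 fold change of -0.05, where 18.3% and 16.8% of all genes rose and fell. In mouse 76 names were found, 68 genes were tested, 30 rose and 28 fell, with a median of 0.03, where 37.4% and 37.6% of all genes did. In rat the 4 largest rises at an FPKM of at least 1 were those of Epas1 (HIF-2α; 22.5 ± 0.804 to 45.1 ± 1.95; log2 fold change 1.00 ± 0.069), the endoplasmic hexose dehydrogenase H6pd (5.52 ± 0.607 to 9.98 ± 0.698; log2 fold change 0.86 ± 0.098), Hif1a (88.04 ± 12.3 to 123 ± 5.77; log2 fold change 0.48 ± 0.095) and Got2 of the aspartate shuttle (97.7 ± 8.39 to 133 ± 5.73; log2 fold change 0.44 ± 0.078). The 4 largest falls were those of Pgm5, a relative of phosphoglucomutase without its activity (13.3 ± 1.55 to 5.798 ± 1.096; log2 fold change -1.20 ± 0.15), Pck2, a mitochondrial enzyme of gluconeogenesis (35.4 ± 1.62 to 17.99 ± 1.82; log2 fold change -0.97 ± 0.089), the inositol carrier Slc2a13 (5.99 ± 0.514 to 3.404 ± 0.394; log2 fold change -0.81 ± 0.1) and the glycogen-binding Stbd1 (13.96 ± 1.04 to 8.56 ± 0.544; log2 fold change -0.71 ± 0.093).

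In mouse the 4 largest rises among these were those of Pgp, a phosphatase that clears side products of glycolysis (17.7 ± 0.8796 to 94.8 ± 1.04; log2 fold change 2.42 ± 0.04), the carriers Slc2a6 (1.55 ± 0.286 to 7.304 ± 0.376; log2 fold change 2.24 ± 0.11) and Slc2a8 (5.08 ± 0.189 to 14.8 ± 0.188; log2 fold change 1.54 ± 0.067) and the sperm form Gapdhs (1.57 ± 0.353 to 4.58 ± 0.592; log2 fold change 1.54 ± 0.17). The 4 largest falls were those of Pgm5 (4.23 ± 0.329 to 0.444 ± 0.0144; log2 fold change -3.25 ± 0.15), Gpd1 (1.86 ± 0.294 to 0.228 ± 0.073; log2 fold change -3.01 ± 0.25), Pdp1, the phosphatase that switches pyruvate dehydrogenase back on (22.4 ± 1.38 to 3.37 ± 0.3796; log2 fold change -2.73 ± 0.062), and Ppargc1a, a coactivator of mitochondrial genes (3.504 ± 0.259 to 0.7898 ± 0.119; log2 fold change -2.15 ± 0.11). Thus in mouse the kinase gene Pdk1 rose and the opposing phosphatase gene Pdp1 fell 6.62-fold, whereas in rat Pdp1 went from 13.1 ± 1.84 to 11.9 ± 0.576 (log2 fold change -0.14 ± 0.11, adjusted P = 0.341). The other mouse kinase genes did not move 1 way, since Pdk3 and Pdk4 rose and Pdk2 fell (log2 fold change -1.28 ± 0.082). Of the regulators of glucose use, 4 of 9 tested rose and 2 fell in rat, where 18.3% and 16.8% of all genes did. In mouse 7 of 10 rose and 2 fell, where 37.4% and 37.6% of all genes did. The following mouse values and those of Myc, like rat Pdp1 above, were chosen after they were seen. In mouse Hif1a went from 42.3 ± 1.904 to 92.8 ± 0.659 (log2 fold change 1.13 ± 0.031, adjusted P = 1.83e-41) and Epas1 from 11.5 ± 0.913 to 27.7 ± 1.26 (log2 fold change 1.27 ± 0.044, adjusted P = 1.74e-35). Myc went from 19.1 ± 1.14 to 24.2 ± 0.648 in rat (log2 fold change 0.34 ± 0.075, adjusted P = 0.00543) and from 10.5 ± 0.303 to 28.5 ± 1.29 in mouse (log2 fold change 1.44 ± 0.054, adjusted P = 8.85e-34). The other subunits and phosphatases of the pyruvate dehydrogenase complex had a median log2 fold change of 0.02 in rat, over 6 tested, and gave 3 falls of 6 in mouse. The gluconeogenesis genes gave 3 falls of 3 tested in rat and 2 rises and 1 fall of 3 in mouse. The same shares of all genes stand beside these counts, such as 37.6% that fell in mouse, and the lists are short.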

How the data were processed

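Gene counts and FPKM of 12 libraries, 3 for each group, were deposited by the authors in 1 table per species. The deposited counts are whole reads per gene, for which the processing notes of the submitters name HISAT2, HTSeq 0.11.2 and the builds GRCm38 and Rnor_6.0, and which do not give the strand setting. The deposited FPKM were computed by the authors from these counts, and 100% of the 79104 rat and 86999 mouse values checked implied a single length per gene within 0.1%. FPKM columns were divided by TMM factors for display.

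Counts were filtered with filterByExpr, scaled by TMM and tested with edgeR 4.0.16 (R 4.3.3) by the quasi-likelihood test with Benjamini-Hochberg adjustment over all genes of a species. The difference between the species was tested as an interaction over genes matched by symbol. That fit took all 12 libraries and estimated 1 spread per gene for both species. Fitted apart, the biological coefficient of variation was 0.106 in rat and 0.0318 in mouse. The SE of a difference can thus be below that of the rat change, as for Ldhb (0.12 against 0.14). The P of a difference may understate the spread in rat. DESeq2 1.42.0, limma 3.58.1 on log2(FPKM + 1), other scalings, filters and call rules, and leaving out each library were alternatives. Counts were simulated for the same groups and library sizes, with 200 genes per species changed by a log2 fold change of 1.5 up or down. The simulation used 1 spread for all genes of a species. On these counts edgeR recovered 99.5% of 200 changed genes in rat (13271 genes run). It recovered 100% of 199 in mouse (14662) and 98.5% of 333 for the difference (10915). Of its calls there, 5.238%, 2.451% and 3.245% were false. In the data far more genes were called, with 37.4% higher and 37.6% lower in mouse, and the simulation did not cover such a case. The median fitted log2 size of the changed genes was 1.48 in rat, 1.5 in mouse and 1.5 for the difference. Recovery at smaller sizes, such as the rat median of 0.28 for the listed genes, was not tested. Isozyme shares and exact permutation tests used Python 3.11.15 and scipy 1.17.1.

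Genes given with every library were those with an adjusted P under 0.05 and a log2 fold change past 0.85, up or down, in a species with an FPKM of 1 or more. Of the other pathway genes the 4 largest rises and falls past the same P and FPKM were named. The genes and lists were chosen with earlier results of these data known. Rat promoters came from RefSeq (GRCr8), whose build differs from that of the rat reads, so no rat gene coordinates are given. A further gene of the proposed list is not reported here.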

Additional observations from a re-analysis of the deposited data

Results flagged for a closer look

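The test of the difference between the species called 36 of 40 genes, and each is given here with the mouse change minus the rat change on the log2 scale. For glucose uptake and phosphorylation the differences were Slc2a1 2.53, Hk1 2.35, Hk2 2.71 and Gpi1 1.51. For phosphofructokinase and its activator the values were Pfkl 1.38, Pfkm 0.83, Pfkp 2.30, Pfkfb1 -1.75 and Pfkfb3 3.12. For aldolase and the lower steps the differences were Aldoa 1.08, Aldoc 2.02, Tpi1 1.22, Gapdh 1.75, Pgk1 1.47 and Pgam1 1.72. For enolase and pyruvate kinase the values were Eno1 1.26, Eno3 -1.15 and Pkm 1.54. For lactate the differences were Ldha 1.90, Ldhb -1.49, Slc16a1 1.77, Slc16a3 1.93 and Bsg 2.00. For pyruvate dehydrogenase and its kinases the values were Pdha1 -0.56, Pdk1 1.51, Pdk2 -1.15, Pdk3 0.96 and Pdk4 0.61. For the pentose phosphate branch the differences were Taldo1 0.91 and Tkt 0.77. For gluconeogenesis and glycogen the values were Fbp2 4.75, Pgm1 1.81, Gys1 2.30, Pygl 1.65 and Gbe1 4.05. Eno2 had -2.0 (adjusted P = 0.0474 by edgeR), which was -0.04 (adjusted P = 0.887) without RM1, the library with 387 reads of Eno2 against 38 and 54 in the other RM libraries. The Eno2 call was also lost without RC2, RC3 or any single mouse library (adjusted P of 0.0645 to 0.0785). The Pdk4 call was lost with library size alone (0.32, adjusted P = 0.205) and without RC1 (0.0568), RM3 (0.0506) or MC2 (0.0578). The 2 highest values were those of Fbp2 and Gbe1, and Fbp2 rests on 2 to 42 reads per library. The rat and mouse tables came from different species, gene models and cultures, whose part in these differences was not tested. No outlier test was made within groups of 3 libraries.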

How the results depend on the processing

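In rat 25 genes passed the threshold, and 6 did by the study's criteria (5 higher and 1 lower) and 5 with a log2 fold change of at least 1 added (2 higher). In mouse 40 passed, and the 8 that fell became 3 by the study's criteria and 4 with a log2 fold change of at least 1. With library size alone, mouse gave 32 rises and 11 falls. Leaving out single libraries gave 21 to 26 calls in rat (18 to 21 higher and 3 to 6 lower, with 6 lower without RC1), 39 to 40 in mouse (32 to 33 higher and 6 to 8 lower) and 34 to 36 differences between the species (29 to 30 larger in mouse and 5 to 6 larger in rat), and 18 to 19 rat and 26 mouse isozyme shares that did not overlap. Same-numbered libraries showed no common deviation (correlations of -0.098 to 0.085 in rat and 0.001 to 0.015 in mouse). Libraries of different numbers had correlations of -0.185 to 0.162 in rat and -0.01 to 0.006 in mouse. With 3 libraries per group these values show no sign of pairing by number and cannot establish that there was none. With the replicate number as a block, 24 rat genes (21 higher and 3 lower), 40 mouse genes and 36 differences passed. The rat call lost there was that of Fbp2 (adjusted P = 0.0558). Of single calls, those of rat Fbp2 and of the Eno2 difference were each lost in 9 settings, and rat Bsg, Pfkp and Taldo1 passed only without RC1. Mouse Pfkfb1 and Pfkfb2 lost their calls without MC3 and in other settings.

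Sign changes of log2 fold changes and differences were confined to genes that had not passed the threshold, and their cause was not tested. Some then passed with the other sign, namely mouse Eno2 and Pgm2 with library size alone (adjusted P = 0.00514 and 0.00863) and by limma (0.0384 and 0.00639) and the Pgm2 difference with library size alone (0.0384), while mouse Eno2 passed as a rise without MC3 (0.015) or MM3 (0.0184). In rat these were Pgm2 (-0.03 without RC2, up to 0.11), Pfkfb2 (0.03 without RC1), Tkt (-0.03 without RC1, up to 0.07) and Pdha1 (-0.11 without RC2 and -0.01 without RM2, up to 0.13). In mouse they were Eno2 (-0.17 with library size alone and -0.16 by limma), Pgm2 (-0.22 and -0.20) and Pdhb (0.02 without MC1, down to -0.08). Of the differences they were Slc2a4 (-0.12 with library size alone, -0.21 without RC3 and -0.06 without MM1, up to 0.48), Pdhb (-0.23 with library size alone) and Pgm2 (-0.28 with library size alone, -0.05 without RC1, -0.02 without RM3 or MM3 and -0.00 without MC1 or MC3, up to 0.09). There were 25 isozyme shares in rat and 26 in mouse. Taken as shares of counts, 28 of them had a model minus control difference that moved by more than the SD of both groups combined. Fewer than 100 reads in a library limit Slc2a4, Fbp2, Pfkfb1 and Pdk4 in both species, rat Hk3 and Eno2, mouse Slc2a3 and the second mouse Aldoa row.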
